A study of Arabidopsis thaliana with 9 samples.

Results

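LHCB4.1, LHCB4.2 and PSAN are 3 nuclear genes whose proteins work in the photosystems of the chloroplast. They were chosen by name, with earlier results of these data known. The rule took probe sets for which the array annotation lists exactly 1 nuclear gene, being LHCB4.1, LHCB4.2 or PSAN. Counts of members beside the share of all probe sets are therefore a description. Each gene had 1 probe set, so 3 of the 22746 tested probe sets were members, and 13513 of the tested probe sets carried exactly 1 named gene. LHCB4.2 (AT3G08940) lies on chromosome 3, and LHCB4.1 (AT5G01530) and PSAN (AT5G64040) lie on chromosome 5. The names of all 3 probe sets carry none of the letters that Affymetrix uses to mark probes shared between transcripts. Probe sequences were not checked, so whether the probes of 1 LHCB4 copy also read the other was not tested.

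Transcripts of an Arabidopsis thaliana cell suspension culture were measured on 9 Affymetrix ATH1 arrays, which read short probes near the 3 prime end of each transcript. High light meant 30 min at 1800 microE/m2/s, dark meant 1 h without light, and control cells remained at their growth light of 50 microE/m2/s, with 3 arrays in each group. All cells came from cultures on day 9 of growth, had been grown at 24 °C in continuous light, and were kept at constant temperature by a water bath during treatment. The labels give no genotype and call the replicates biological without naming separate cultures. The p-values therefore cover the spread among these arrays, which may be technical. Dark and high light treatments also differed in length, and each was sampled at a single time.

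LHCB4 is the minor antenna protein CP29 of photosystem II. It binds chlorophyll and carotenoids and sits between the reaction centre core and the outer trimers of the light-harvesting complex, so excitation energy from the outer antenna passes through it. Arabidopsis holds LHCB4.1, LHCB4.2 and LHCB4.3 as separate gene copies. PSAN is a small subunit of photosystem I on the lumen side of the thylakoid membrane, where it aids electron transfer from plastocyanin. Transcription of nuclear genes of this kind is known to depend on light, through photoreceptors and through signals from the chloroplast.

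The 2 measured LHCB4 copies among the members had unlike values across the light conditions. LHCB4.2 stood at 0.444 of the control signal in high light and at 0.474 in dark. The first passed the test over all probe sets and the second did not, although the unadjusted limma p were 0.000121 and 0.000221. The adjustment draws on all probe sets of a comparison, of which 0.501% were called in high light and 0% in dark against control. LHCB4.1 stood at 0.809 of its control signal in high light and 0.918 in dark. PSAN lay between them, at 0.610 of control in high light and 0.693 in dark. The values below are log2 signals after RMA, a method that corrects background, equalises the distributions of the arrays and combines the probes of a set.

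LHCB4.2 had log2 signals of 6.23, 6.42 and 6.23 on high light replicates 1, 2 and 3, of 6.47, 6.11 and 6.59 on dark replicates 1, 2 and 3, and of 7.16, 7.44 and 7.80 on control replicates 1, 2 and 3. All 3 control arrays lay above all 6 others, and the high light and dark arrays overlapped. That order, with every control array above every treated array, was found in 298 of 22746 probe sets (1.31%). The group means were 6.30 ± 0.11 in high light, 6.39 ± 0.25 in dark and 7.47 ± 0.32 in control (SD, n = 3). Within their own arrays these signals stood at percentiles 55.6 to 58.3 of all tested probe sets in high light, 54.6 to 60.7 in dark, and 66.8 to 75.4 in control. LHCB4.2 was thus read above the median of every array, which lay between 5.55 and 5.67.

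LHCB4.1 had log2 signals of 9.61, 9.76 and 9.76 on the high light replicates, of 9.93, 9.80 and 9.95 on the dark replicates and of 9.84, 9.97 and 10.24 on the control replicates. The high light arrays lay below all dark and all control arrays, and the dark and control arrays overlapped. The means were 9.71 ± 0.09 in high light, 9.89 ± 0.08 in dark and 10.02 ± 0.20 in control (SD, n = 3). LHCB4.1 ranked between percentiles 92.2 and 95.6 on the 9 arrays. Signals of different probe sets depend on their own probes, so the higher signal of LHCB4.1 does not order the amounts of both transcripts.

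PSAN had log2 signals of 7.97, 8.07 and 7.87 on the high light replicates, of 8.03, 8.03 and 8.40 on the dark replicates and of 8.49, 8.65 and 8.91 on the control replicates. As for LHCB4.2, the 3 control arrays lay above the other 6. Dark replicate 3 came within 0.09 of the lowest control array, whereas the high light arrays ended 0.43 below it. The means were 7.97 ± 0.10 in high light, 8.16 ± 0.21 in dark and 8.68 ± 0.21 in control (SD, n = 3).

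**Figure D1:**
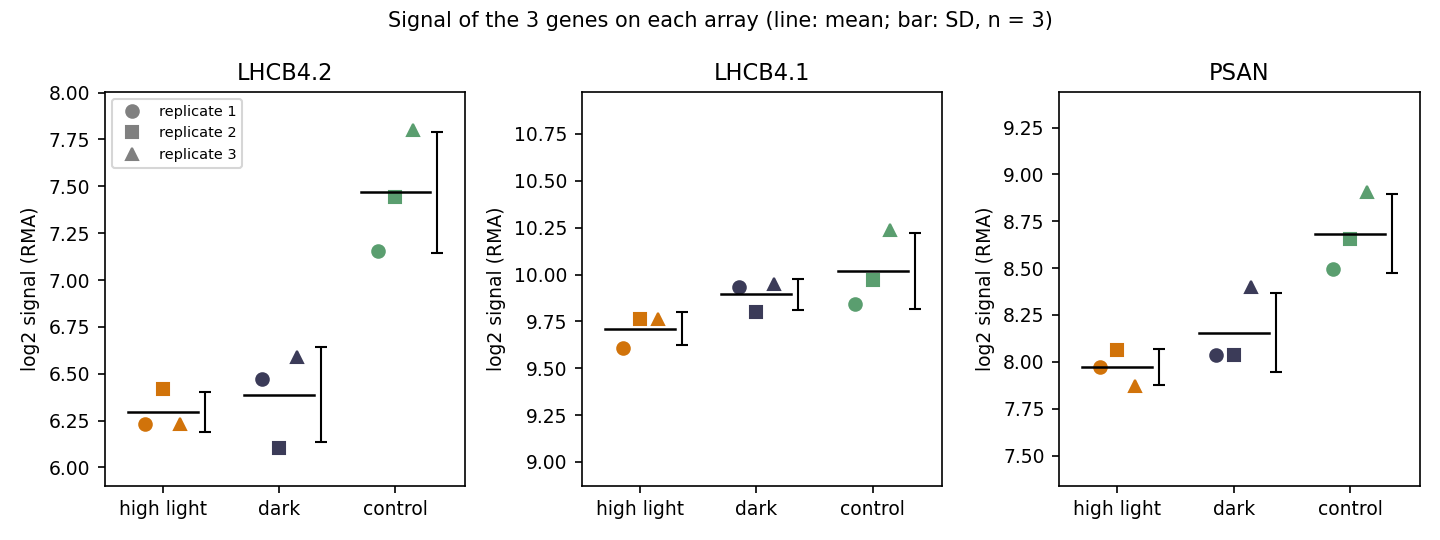
Log2 signal after RMA (vertical axes, each spanning the same width) of LHCB4.2, LHCB4.1 and PSAN on the high light, dark and control arrays (horizontal axes). Symbols are single arrays by replicate number, lines the means and bars the SD (n = 3). For LHCB4.2 and PSAN all control arrays lie above the other 6 arrays, and for LHCB4.1 the dark arrays (9.80 to 9.95) overlap the control arrays (9.84 to 10.24).

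Control replicate 3 was the highest and control replicate 1 the lowest of the control arrays for LHCB4.2, LHCB4.1 and PSAN alike. Among the dark arrays, replicate 3 was the highest for each. The deviations of the arrays from their group means ran in parallel, with Pearson's r of 0.90 between LHCB4.2 and LHCB4.1, 0.85 between LHCB4.2 and PSAN and 0.70 between LHCB4.1 and PSAN over 9 arrays, which is a description of values that share their arrays. A sign of RNA quality moved with these levels within control, and was highest on dark replicate 3. Within high light it did not, as it was lowest on replicate 2, where LHCB4.2 and PSAN had their highest signals of that group. The mean log2 excess of the 3 prime over the 5 prime control sets for actin, GAPDH and ubiquitin was 1.68, 1.62 and 1.81 on high light replicates 1, 2 and 3, 1.44, 1.69 and 2.01 on dark replicates 1, 2 and 3 and 1.32, 1.64 and 1.78 on control replicates 1, 2 and 3. Its group means were 1.71 ± 0.09 in high light, 1.71 ± 0.29 in dark and 1.58 ± 0.24 in control (SD, n = 3), and exact two-sided permutation tests gave p = 0.5 for high light and 0.5 for dark against control. With this index as a covariate, a choice made after seeing the data, the log2 changes in high light were -1.24 for LHCB4.2 and -0.79 for PSAN, with limma adjusted p of 0.0192 and 0.0204. LHCB4.1 had -0.35 and was not called (adjusted p = 0.279). In dark against control this covariate gave limma adjusted p of 0.258 for LHCB4.2, 0.410 for PSAN and 0.864 for LHCB4.1, so none was called. On the first principal component of all probe sets (47.4% of the variance), high light replicates 2 and 3 scored 41.5 and 45.4 and the other 7 arrays, high light replicate 1 among them, between -28.5 and 4.32.

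The first comparison asked what high light changed relative to the growth light. LHCB4.2 fell to 0.444 of control in high light, with -1.17 on the log2 scale (SE 0.18, limma adjusted p = 0.0309 over all probe sets). Ordered from the lowest, it ranked 30 among 22746 log2 changes, and the gap between the highest high light array and the lowest control array was 0.74. Of the 3 members, 1 was called lower and 0 higher at an adjusted p under 0.05, where 0.0615% of all probe sets were called lower and 0.501% in either direction. PSAN had a log2 change of -0.71 (SE 0.14, adjusted p = 0.0835), at rank 151, and LHCB4.1 one of -0.31 (SE 0.11, adjusted p = 0.440), at rank 1377. At an unadjusted limma p under 0.05 all 3 members were lower, against 4.92% of all probe sets. In all 3 genes the high light arrays did not overlap the control arrays, which held in this direction for 6.85% of all probe sets.

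Same-numbered high light and control arrays deviated together over all probe sets (r of 0.515, 0.261 and 0.384 for replicates 1, 2 and 3), so these arrays were also compared with the replicate number as a block. PSAN was then called at a limma adjusted p of 0.0420 (SE 0.12), LHCB4.2 at 0.0193 (SE 0.16), and LHCB4.1 was not called (0.215, SE 0.09). That is 2 of 3 members called lower, against 0.312% of all probe sets in the same fit. High light minus control was -0.92, -1.03 and -1.57 for LHCB4.2 in pairs 1, 2 and 3. For PSAN the differences were -0.52, -0.59 and -1.03. For LHCB4.1 they were -0.23, -0.21 and -0.48. Each gene had a negative difference in every pair, which follows from the lack of overlap given above and adds nothing to it.

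The call of LHCB4.2 without the block was lost when certain single arrays were left out, although its log2 change remained negative. Its adjusted p was 0.119 without high light replicate 2, 0.172 without high light replicate 3, 0.0659 without dark replicate 1, 0.0954 without control replicate 2 and 0.0851 without control replicate 3, while its log2 change ranged from -1.33 to -1.01 over the 9 arrays left out in turn. Dark replicate 1 is not part of this comparison and enters only the shared spread, and without it the log2 change was still -1.17. Without high light replicate 2 the log2 change was -1.23, and 43 probe sets were called in all, against 114 with all arrays. Without high light replicate 1, the high light array that lay near the others on the first component, the log2 change was -1.14 and the adjusted p 0.0341.

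Dark cells were then set against the growth light, after 1 h of darkness. LHCB4.2 stood at 0.474 of control in dark, a log2 change of -1.08 (SE 0.18) that ranked 18 from the lowest of 22746. Its limma adjusted p was 0.502, with an unadjusted p of 0.000221. PSAN had a log2 change of -0.53 (SE 0.14, adjusted p = 1), at rank 234, and LHCB4.1 one of -0.12 (SE 0.11, adjusted p = 1), at rank 3603. Limma called 0 of 3 members and 0% of all probe sets at an adjusted p under 0.05. At an unadjusted limma p under 0.05, LHCB4.2 and PSAN were lower, 2 of 3 members, against 1.77% of all probe sets. The same genes had dark arrays that did not overlap the control arrays, as did 3.45% of all probe sets in this direction. Between arrays with the same number, which were not taken as pairs here, dark minus control was -0.69, -1.34 and -1.21 for LHCB4.2 and -0.46, -0.62 and -0.51 for PSAN. For LHCB4.1 it was 0.09, -0.17 and -0.29, so 1 of 3 differences was positive.

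**Figure D2:**
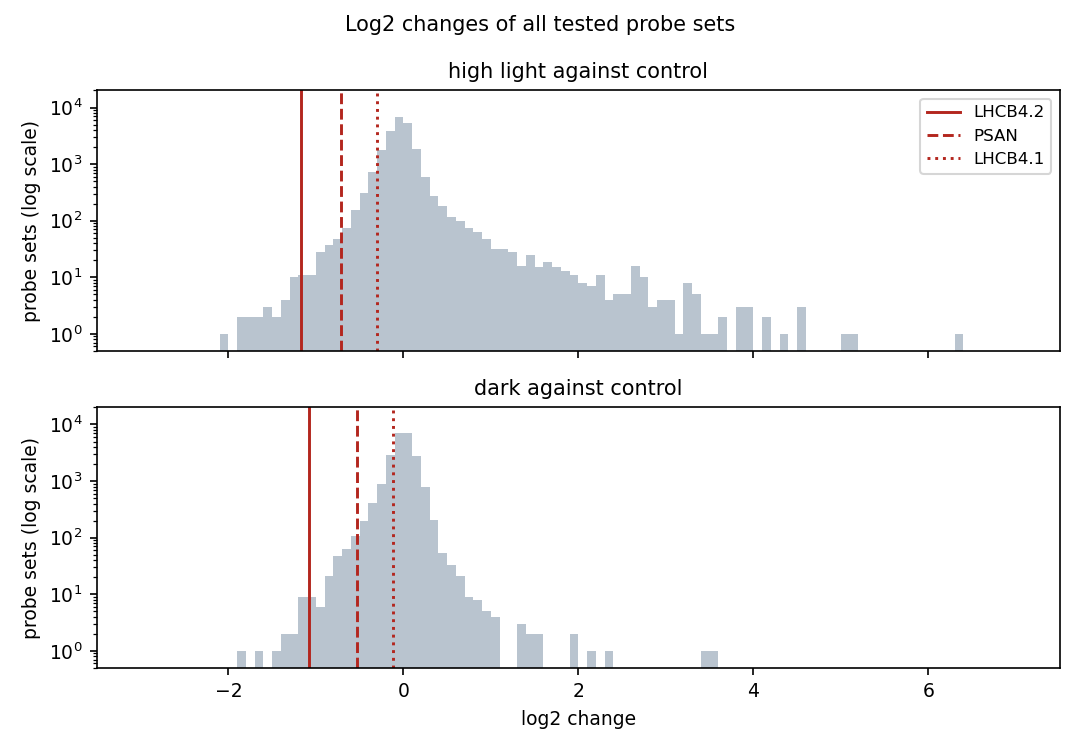
Log2 changes of all 22746 tested probe sets (horizontal axis, bins of 0.1) in high light against control and in dark against control, as numbers of probe sets on a log scale (vertical axis), with the log2 changes of LHCB4.2, PSAN and LHCB4.1 as red lines. LHCB4.2 lies in the lower tail in both panels, at -1.17 and -1.08. LHCB4.1 is less low, at -0.31 and -0.12, which rank 1377 and 3603 from the lowest.

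High light was also set against dark. LHCB4.2 had nearly the same signal in both, with a log2 change of -0.09 (SE 0.18, limma adjusted p = 0.921), and differences between same-numbered arrays of either sign (-0.24, 0.31 and -0.36). PSAN had a log2 change of -0.19 (SE 0.14, adjusted p = 0.816) and LHCB4.1 one of -0.18 (SE 0.11, adjusted p = 0.768). Limma called 0 of 3 members here, where 0.897% of all probe sets were called in either direction and 0.0132% lower. At an unadjusted p under 0.05 it also found 0 of 3, against 3.52% of all probe sets lower. The high light arrays of LHCB4.1 lay 0.03 below its dark arrays without overlap, as did the arrays of 5.28% of all probe sets in this direction. For the order of the groups, high light and dark were neighbours that did not differ beyond their spread for LHCB4.2 and PSAN, and for LHCB4.1 no pair of groups was called.

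A moderated F test over the 3 groups gave LHCB4.2 an adjusted p of 0.0356, PSAN 0.128 and LHCB4.1 0.732, where 0.633% of all probe sets were called. This test uses the same arrays as the comparisons above. With the replicate number as a block the adjusted p was 0.0241 for LHCB4.2, 0.0683 for PSAN and 0.350 for LHCB4.1.

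The 2 copies were then compared directly, by the log2 signal of LHCB4.2 minus that of LHCB4.1 within each array. Effects that shift both copies alike on an array cancel in this difference, and probe effects that are constant over arrays cancel when groups are compared. Any signal of 1 copy read by the probes of the other would not cancel. The difference was -3.38, -3.34 and -3.53 on the high light replicates, -3.46, -3.69 and -3.36 on the dark replicates and -2.68, -2.53 and -2.44 on the control replicates. All control arrays lay above the other 6, with a distance of 0.66 to the nearest treated array. The spread within control was 0.12 (SD), against 0.32 for LHCB4.2 alone. Within dark it was 0.17, against 0.25, and within high light 0.10, against 0.11, which is nearly the same.

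In high light against control the log2 change of LHCB4.2 minus that of LHCB4.1 was -0.87 (SE 0.09), which is a ratio of 0.548. In dark against control this difference of changes was -0.95 (SE 0.12), a ratio of 0.516. Both had an exact two-sided permutation p of 0.1, the smallest that 3 against 3 arrays can give, and 0.15 after Benjamini-Hochberg adjustment over the 3 comparisons, so neither could pass 0.05 in this design. Over the arrays left out in turn, the difference ranged from -0.93 to -0.81 in high light and from -1.03 to -0.86 in dark. Between high light and dark it was 0.09 (SE 0.11, exact permutation p = 0.6), and the arrays overlapped. High light and dark share the control arrays in the first 2 of these values, so these are not independent of each other.

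**Figure D3:**
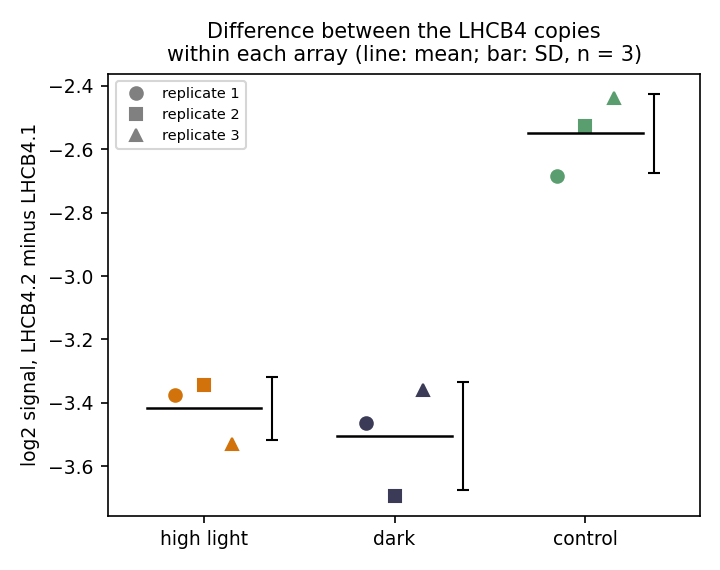
Log2 signal of LHCB4.2 minus log2 signal of LHCB4.1 on each array (vertical axis) in high light, dark and control (horizontal axis). Symbols are single arrays by replicate number, lines the means and bars the SD (n = 3). The high light and dark arrays lie between -3.69 and -3.34 and the control arrays between -2.68 and -2.44.

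LHCB4.3, the remaining copy, was measured by 1 probe set and is not a member. Its log2 signals were 8.01, 8.32 and 8.50 on the high light replicates, 7.88, 7.93 and 9.19 on the dark replicates and 8.20, 8.32 and 9.11 on the control replicates. Replicate 3 was the highest in each group, and all groups overlapped. The log2 change was -0.27 (SE 0.37, limma adjusted p = 0.917) in high light and -0.21 (SE 0.37, adjusted p = 1) in dark against control. In this fit without the block, the standard error was larger than the change in both. With the replicate number as a block the SE was 0.18, smaller than the change in both. The limma adjusted p was then 0.593 in high light and 0.952 in dark.

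LHCB4.2 and PSAN were close to each other in pattern. Among 1677 probe sets with 1 gene and an SD of at least 0.3 over the 9 arrays, the sets most like LHCB4.2 were AT3G49790 (Pearson's r of 0.961 over 9 arrays), PSAN (0.959) and AT3G15630 (0.944). The mean signals of AT3G49790 were 5.94 in high light, 5.91 in dark and 6.68 in control, and those of AT3G15630 were 8.72 in high light, 8.81 in dark and 9.62 in control. Like LHCB4.2, each was nearly level between high light and dark and higher in control. For PSAN the nearest were AT1G69080 (0.978), AT5G24490 (0.966) and LHCB4.2 (0.959). LHCB4.1 was nearest to AT3G08890 (0.946), AT2G14020 (0.900) and AT3G14280 (0.894), whose means were lowest in high light, between in dark and highest in control. Probe sets that varied less were not searched, and LHCB4.1 itself fell below that SD, so it could not be listed beside LHCB4.2 or PSAN. Its r over the 9 arrays was 0.80 with LHCB4.2 and 0.83 with PSAN. These values describe likeness over arrays that share their processing, and the listed sets were picked as the highest of many.

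Of 77 nuclear genes listed for the antenna, photosystems, electron transport and ATP synthase, and the Calvin cycle, 12 had a probe set with 1 named gene. Without the members, 9 of 74 were measured. Of these 9, limma called 0 lower and 0 higher in high light against control, where 0.0615% of all probe sets were called lower. At an unadjusted p under 0.05, 3 of 9 were lower, against 4.92% of all probe sets, and the median log2 change was -0.27 (from -0.50 to -0.08), against -0.03 over all probe sets. In dark against control 0 of 9 were called, as was 0% of all probe sets. At an unadjusted p under 0.05, 1 of 9 was lower, against 1.77% of all probe sets, and the median was -0.21 (from -0.34 to -0.04), against -0.00 over all probe sets. In high light against dark 0 of 9 were called, against 0.897% of all probe sets in either direction. At an unadjusted p under 0.05, 0 of 9 were lower, against 3.52% of all probe sets, and 0 higher, and the median was -0.11, against -0.04. LHCB4.2 and PSAN had lower log2 changes than each of these 9 genes in high light and in dark against control. Since members and lists were chosen with earlier results of these data known, this order is a description and was not tested.

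By role, the photosystem I gene PSAE1, which encodes a subunit on the stromal side where ferredoxin docks, had a log2 change of -0.08 (SE 0.18) in high light and -0.04 (SE 0.18) in dark. PSAN and PSAE1 thus had unlike values within the same complex, and the difference was not tested. In photosystem II, PSBY, a small membrane subunit, had -0.50 (SE 0.11, limma adjusted p = 0.140) in high light and -0.33 (SE 0.11) in dark. PSB27, which assists assembly and repair of photosystem II, had -0.49 (SE 0.15) and -0.34 (SE 0.15). PSBW, another small subunit, had -0.21 (SE 0.15) and -0.04 (SE 0.15). The high light and the dark arrays of PSBY and PSB27 lay below the control arrays without overlap, as for LHCB4.2 and PSAN. The same held for ATPC1, described next. All control arrays lay above the other 6 in 1.31% of all probe sets.

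ATPC1, the gamma subunit of the chloroplast ATP synthase, had log2 changes of -0.42 (SE 0.11, limma adjusted p = 0.225) in high light and -0.19 (SE 0.11) in dark. Of the Calvin cycle genes, RCA, which encodes the activase of Rubisco, had -0.17 (SE 0.11) and -0.23 (SE 0.11). PRK, which encodes phosphoribulokinase, had -0.41 (SE 0.22) and -0.30 (SE 0.22). None of these had an adjusted p under 0.05 in either comparison, also with the replicate number as a block, where PSBY had 0.0535 in high light.

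**Figure D4:**
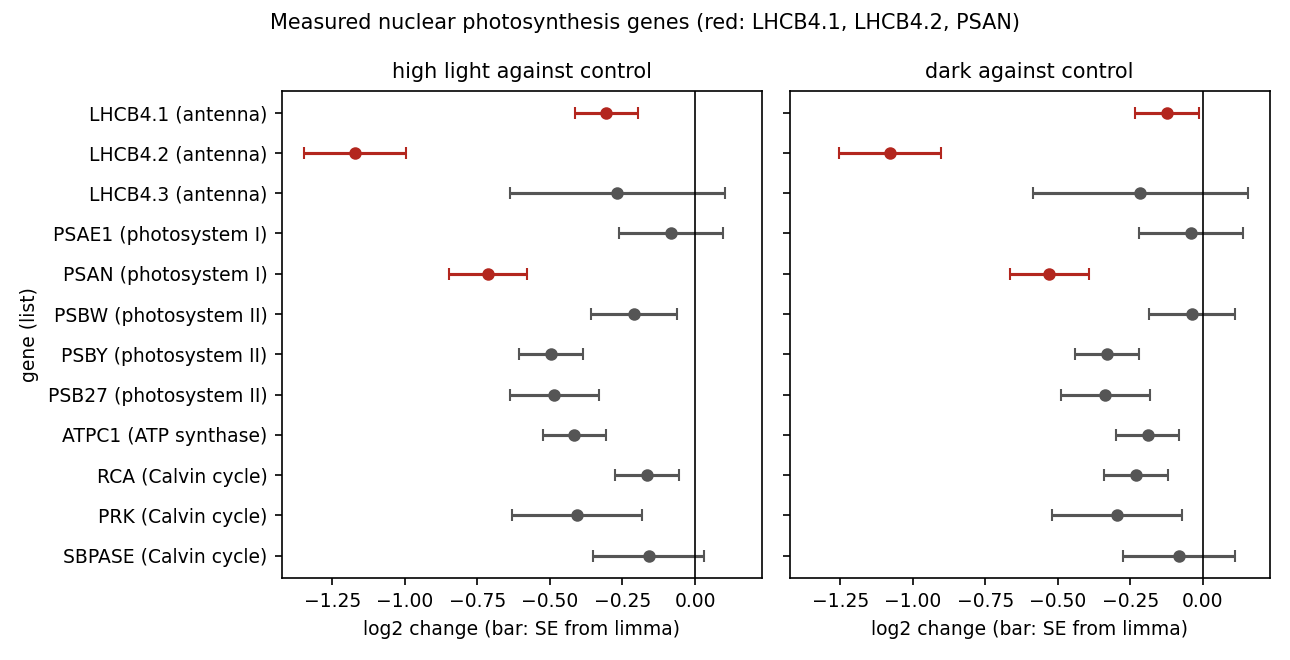
Log2 changes (horizontal axes, bars are limma SE) of the 12 measured nuclear photosynthesis genes (vertical axis, with their list) in high light against control and in dark against control. LHCB4.2 and PSAN, in red with LHCB4.1, have the lowest values in both panels, and all 12 genes lie below 0. The median over all probe sets also lies below 0, at -0.03 in high light and -0.004 in dark.

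Core subunits of both photosystems are encoded in the plastid. Plastid genes whose symbol starts with psa or psb, not all of them for core subunits, were measured by 20 probe sets. Without the block, limma called 0 of 20 in each of the 3 comparisons. With the replicate number as a block, 1 of 20 was called lower and 0 higher in high light against control, where 0.312% of all probe sets were called lower, and 0 of 20 in the other comparisons. That gene was psbD, which encodes the D2 protein of the photosystem II reaction centre, with a log2 change of -0.66 (SE 0.49, limma adjusted p = 0.814 without the block; SE 0.11, adjusted p = 0.0374 with it). At an unadjusted p under 0.05 without the block, 1 of 20 was lower and 0 higher in high light against control, about the share of all probe sets (4.92% lower), and the median log2 change was -0.04, against -0.03 over all probe sets. In dark against control 1 of 20 was lower and 0 higher, against 1.77% of all probe sets lower, and the median was -0.14. The gene in both counts was psbZ, with -0.50 (SE 0.16, adjusted p = 0.351, and 0.189 with the block) in high light and -0.38 (SE 0.16) in dark. Both psbD and psbZ were named after their values were seen.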

How the data were processed

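The authors deposited log2 expression values, 1 per probe set and array. The submitters' processing notes name RMA and the affy package, without version or settings. The base of the logarithm was taken as 2 from the range of the values, since no label states it. RMA equalises the arrays, so a shift of most transcripts in 1 direction would not be seen. Arrays have no read depth, and their number limits the precision. Probe-level data were not used here, so no test of signal above background was made.

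The table held 22810 probe sets, of which 64 Affymetrix controls were left out of the tests. Genes were named from the platform annotation, in which 13513 probe sets have 1 gene, 503 have several and 8730 have none listed and stay unnamed here. Gene IDs matched the RefSeq gene table for 13436.

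Comparisons used limma 3.58.1 in R 4.3.3 on all 9 arrays, with a mean per group, eBayes (6 residual and 2.55 prior degrees of freedom) and Benjamini-Hochberg adjustment over 22746 probe sets. The fit was tested on simulated data. LHCB4.2 minus LHCB4.1 was compared with exact two-sided permutation tests. The members and gene lists were chosen with earlier results of these data known. Every measured antenna and photosystem gene was to be named, and of the other lists each called gene and the 2 with the smallest p per comparison. For likeness, the rule took the 3 probe sets with the highest Pearson correlation with each member. In high light against control all 3 same-numbered pairs had deviations correlated over 0.1 (0.261 to 0.515). In dark against control (0.0124 to 0.632) and high light against dark (-0.03 to 0.485) 1 pair did not, and there the numbers were not taken as pairs. Every fit with the replicate block nevertheless included the dark arrays under their replicate numbers.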

Additional observations from a re-analysis of the deposited data

How the results depend on the processing

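LHCB4.2 in high light against control lost its call after another quantile normalisation (log2 change -1.14, adjusted p = 0.0515), with the 6 arrays of both groups alone (-1.17, 0.0666) and at an adjusted p under 0.01 (-1.17, 0.0309). With arrays left out in turn it ranged from -1.33 to -1.01 (adjusted p 0.0307 to 0.172). PSAN in that comparison gained a call with array weights (-0.66, 0.0280), the replicate block (-0.71, 0.0420) and the RNA quality index (-0.79, 0.0204), and ranged from -0.81 to -0.60 with arrays left out (0.0497 to 0.358, the lowest without dark replicate 3). LHCB4.2 in high light against dark was 0.061 with array weights and ranged from -0.24 to 0.0067 with arrays left out. LHCB4.2 minus LHCB4.1 in high light against dark ranged from -0.0058 to 0.16. The causes were not tested. The numbers of probe sets called in high light against control were 387 with array weights, 302 with the replicate block, 59 at an adjusted p under 0.01 and 43 to 575 with arrays left out, against 114. In high light against dark they were 642, 430, 84 and 76 to 675, and 131 with only the 6 arrays of both groups, against 204. In dark against control 5 were called with array weights, against 0. The replicate block changed no other call of the 3 genes. As pairs, LHCB4.2 minus LHCB4.1 had exact sign-flip p of 0.25 in high light and 0.25 in dark against control, the smallest 3 pairs can give. Every listed photosynthesis gene had 1 probe set, so averaging probe sets changed nothing.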

Other observations

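Of the genes next to the members in the RefSeq gene table, those measured had log2 changes near 0. AT3G08930, beside LHCB4.2, had log2 changes of -0.14 (SE 0.12, limma adjusted p = 0.859) in high light and -0.03 (SE 0.12, adjusted p = 1) in dark against control. AT5G64030, beside PSAN, had -0.04 (SE 0.09, adjusted p = 0.950) and 0.09 (SE 0.09, adjusted p = 1). The other neighbours had no probe set with 1 named gene and were not analysed here.

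HYH, a light signalling transcription factor and the 1 of 13 listed light and plastid regulators measured, had mean log2 signals of 3.88 in high light, 3.74 in dark and 3.78 in control, under the lower quartile of all arrays (4.05 to 4.12). The root gene PYK10 was read at 4.60 in high light, 4.51 in dark and 4.44 in control. Of the listed markers, 0 of 6 genes of dividing cells and 0 of 4 seed genes had a probe set with 1 named gene, so the culture was not checked against those markers.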
